A study of Mus musculus with 12 samples.

Results

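Fatty acid uptake, storage and oxidation were described through 42 named genes, grouped by step into regulators, uptake, lipid droplet, carnitine shuttle, mitochondrial beta oxidation, electron transfer, and enzymes of the peroxisome or of both organelles. The members were listed by name, and 39 of the 42 had a named probe set among the 19505 genes of the array table. Esrra, Acsl1 and Etfb were not analysed here. Expression was measured in myocardium of 12 mice on single-colour arrays, with 4 mice and 4 arrays in each of 3 groups. DM_AngIV mice received intraperitoneal streptozotocin for 5 days, had a fasting glucose of at least 16.7 mM 2 weeks later, and were then infused with high-dose angiotensin IV at 2.88 mg/kg/day between weeks 8 and 24. DM mice were made diabetic and selected in the same way and are labelled as untreated. NC mice, the negative controls, received vehicle injections for 5 days. All samples are labelled 6 months, and the sources used here give neither strain nor sex. Streptozotocin kills the insulin-producing beta cells, so the model is one of insulin lack. Per the labels no vehicle infusion is described for DM or NC mice.

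The adult heart draws most of its energy from fatty acids. They reach the myocyte as free acids or from lipoproteins cut by lipoprotein lipase, are bound and activated, and either enter a lipid droplet or cross the mitochondrial membranes as carnitine esters to be shortened by beta oxidation. The nuclear receptor PPAR alpha, activated by fatty acids, and its coactivator PGC-1 alpha raise transcription of many genes of this route. The diabetic heart is known for greater reliance on fatty acids.

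Array medians over genes lay between 4.57 and 4.61 on the log2 scale, and the correlation between any pair of arrays over all genes was 0.977 to 0.990. Of the 39 members, 38 were above background on all 12 arrays. Background here is 4.96, the 95th percentile of 246 reporter control probe sets. The peroxisomal enzyme gene Ehhadh was the exception, at 4.52 to 5.25 in DM_AngIV, 4.87 to 5.82 in DM and 4.30 to 5.39 in NC. All 14 cardiomyocyte markers were above background in each group, with array means between 11.20 and 11.36. An atrial marker differed between arrays. Myl7, the atrial myosin light chain, lay between 3.53 and 3.94 in DM_AngIV, between 3.97 and 9.68 in DM and between 3.72 and 10.08 in NC. It was above background in DM replicates 1, 2 and 4 and in NC replicates 1 and 3. Myl4 and Sln, also among the 7 listed atrial markers, were higher on those arrays than on any other. Of the rest, Nppa ran between 7.33 and 9.65 in DM_AngIV, 5.12 and 10.51 in DM and 8.34 and 10.29 in NC. Kcna5 averaged 6.28, 6.09 and 6.02 and Stard10 6.08, 6.35 and 6.51 in DM_AngIV, DM and NC. Bmp10 was not above background in any group. In bulk tissue fewer cells of a type and less RNA per cell cannot be told apart.

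Both diabetic groups had most of the set above the vehicle controls. In DM_AngIV against NC, 32 of 39 members had a positive log2 fold change, with a median of 0.19, against 48.5% positive and a median of −0.01 over all genes. In DM against NC, 35 of 39 were positive, with a median of 0.21, against 49.8% positive and a median of 0.00 over all genes. Between DM_AngIV and DM the set did not move one way: 16 of 39 were positive in DM_AngIV against DM, where 49.8% of all genes were positive, with a median of −0.08. Omitting DM replicate 1 gave 0.02, and omitting DM_AngIV replicate 1 also gave 0.02. The median in DM_AngIV against NC was 0.10 once DM_AngIV replicate 2 was omitted. The means of both diabetic groups were above the NC mean in 31 members, or 79.5%, against 34.6% of all genes. Both differences use the same NC arrays, so the signs of the diabetic groups are not independent of each other. Only the DM mean was above the NC mean in Fabp3, Cpt2, Eci1 and Pex11a, and only the DM_AngIV mean in Lpl. In Ppara, Fitm2 and Acads neither mean was above that of NC.

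**Figure D1:**
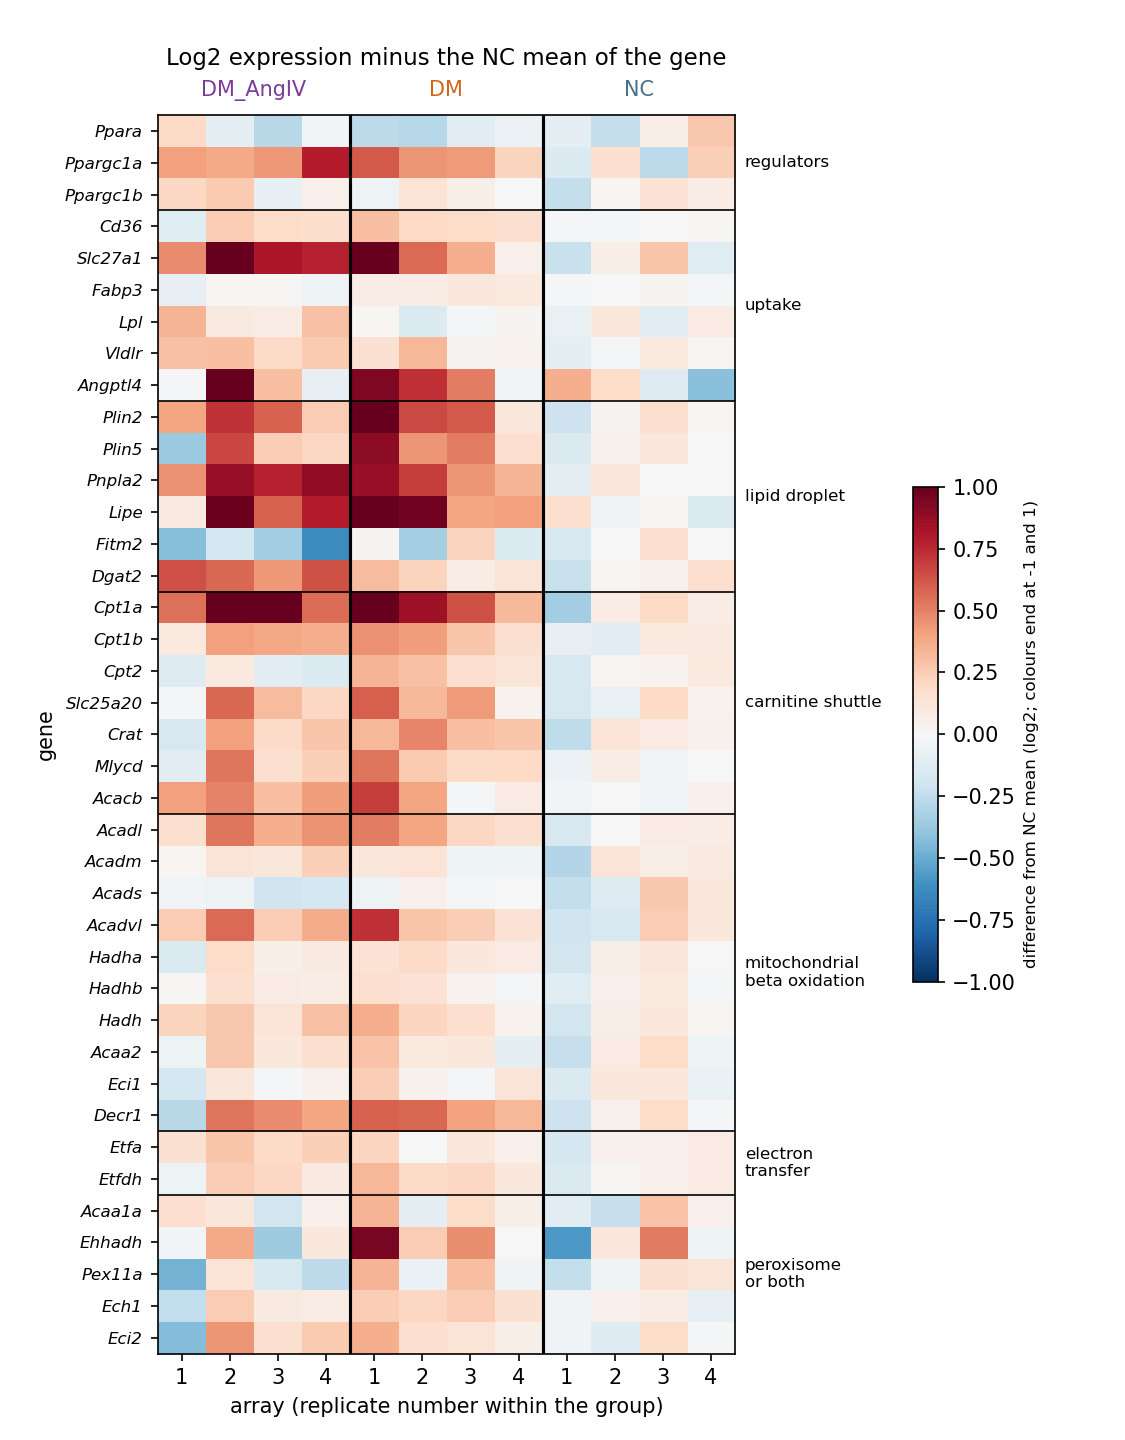
Log2 expression of 39 genes (rows, by step) on 12 arrays (columns, DM_AngIV, DM and NC replicates 1 to 4), each shown as the difference from the NC mean of the gene on the log2 scale, red above and blue below, with colours ending at −1 and 1. Red is densest in the lipid droplet and carnitine shuttle rows, in DM replicate 1 and DM_AngIV replicate 2, while NC replicate 1 is blue in most rows.

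Few single members passed the test over all genes, a limma adjusted p below 0.05. In DM_AngIV against NC, 3 members rose and 0 fell: Cpt1a, Pnpla2 and Dgat2. Over all genes 1.02% passed in this comparison. At an unadjusted p below 0.05 the members counted 15, 14 higher and 1 lower, against 14.6% of all genes (8.11% higher and 6.53% lower). Of the members, 0 passed in DM against NC with limma, where 0.0154% of all genes passed. At an unadjusted p below 0.05 there were 16, all higher, against 8.95% of all genes (4.69% higher and 4.26% lower). The groups did not overlap in 14 members in DM against NC, all higher in DM, against 4.54% of all genes (2.45% higher and 2.09% lower). In DM_AngIV against NC they did not overlap in 13 members, 12 higher and 1 lower, against 9.83% of all genes (5.63% higher and 4.2% lower). With both diabetic groups averaged against NC, 2 members rose, Pnpla2 and Cpt1a, while 0.631% of all genes passed. In that comparison 35 of 39 members were positive, against 49.4% of all genes, and 17 had an unadjusted p below 0.05, all higher, against 13.1% (6.97% higher and 6.11% lower). All 8 diabetic arrays lay above NC in 3 members, Pnpla2, Cpt1a and Acadl, where such a gap was seen in 1.95% of all genes (1.06% higher and 0.887% lower). The 4 comparisons share arrays, so their counts are not independent of each other.

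**Figure D2:**
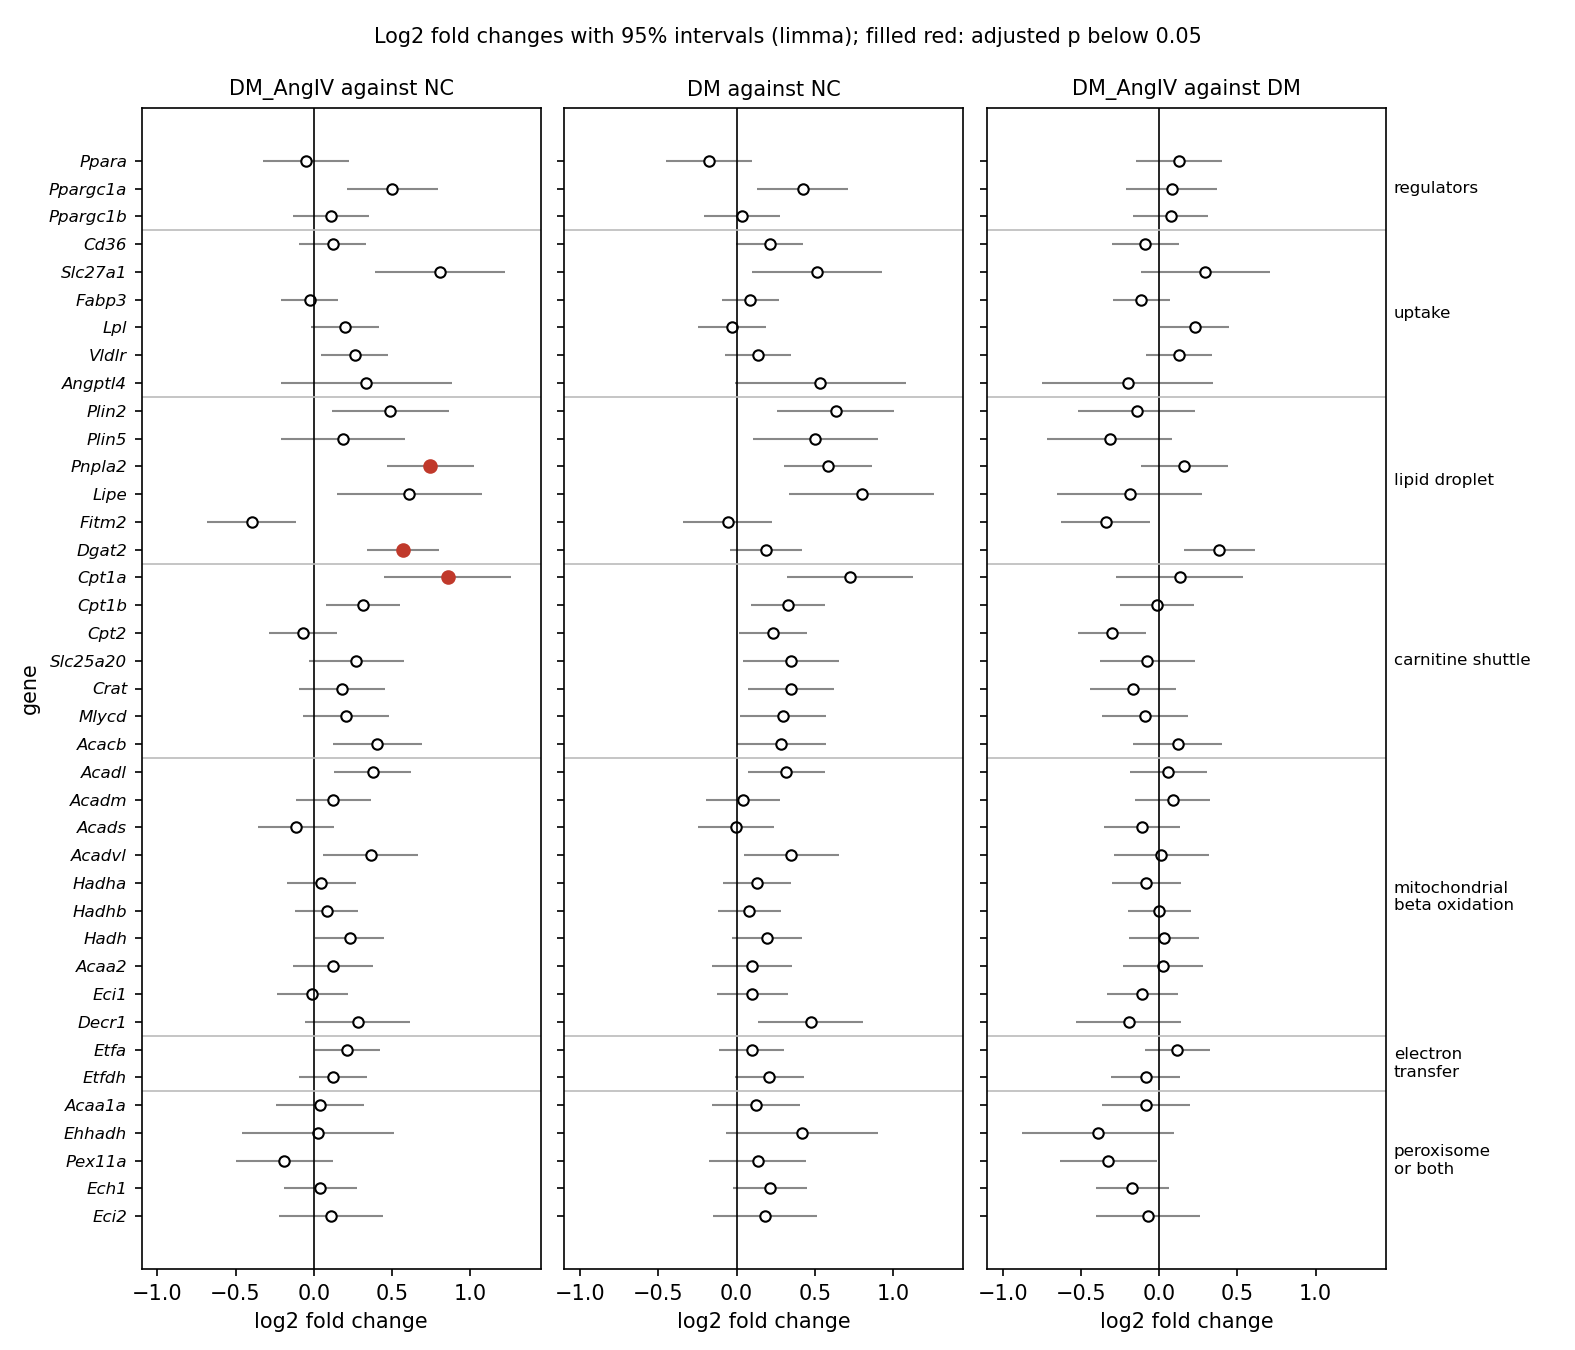
Log2 fold changes of 39 genes (vertical axis, by step) with 95% intervals from limma in 3 comparisons (panels, DM_AngIV against NC, DM against NC, DM_AngIV against DM); filled red points have an adjusted p below 0.05. Cpt1a, Pnpla2 and Dgat2 are filled in DM_AngIV against NC, and 0 points are filled in the other panels.

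Promoter windows are shown for Cpt1a and Pnpla2, the members that passed both in DM_AngIV and in the average of both diabetic groups against NC, and for Plin2, a coat gene that also holds a core site for nuclear receptors. Each runs between 250 bases before and 50 bases after the start used in the RefSeq promoter table (GRCm38.p6). For Cpt1a and Plin2 this start lies inside the annotated span of the gene, not at its outer end. They are Cpt1a at chr19:3323051-3323350 on the plus strand, Pnpla2 at chr7:141454938-141455237 on the plus strand, and Plin2 at chr4:86670010-86670309 on the minus strand. Capitals mark AGGTCA, the core hexamer bound by nuclear receptors, and GGGCGG, the GC box, on either strand, so that TGACCT and CCGCCC are also in capitals.
Cpt1a: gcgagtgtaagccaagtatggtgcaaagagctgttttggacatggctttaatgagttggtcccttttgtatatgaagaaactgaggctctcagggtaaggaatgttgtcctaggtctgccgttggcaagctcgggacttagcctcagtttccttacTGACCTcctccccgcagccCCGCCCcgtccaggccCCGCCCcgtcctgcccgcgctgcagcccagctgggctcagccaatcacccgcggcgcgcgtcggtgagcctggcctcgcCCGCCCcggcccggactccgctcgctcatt
Pnpla2: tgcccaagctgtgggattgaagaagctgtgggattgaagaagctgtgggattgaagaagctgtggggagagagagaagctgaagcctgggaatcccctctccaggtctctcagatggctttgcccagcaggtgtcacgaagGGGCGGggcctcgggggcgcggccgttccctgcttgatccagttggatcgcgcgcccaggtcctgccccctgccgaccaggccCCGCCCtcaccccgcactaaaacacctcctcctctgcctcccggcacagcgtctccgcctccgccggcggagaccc
Plin2: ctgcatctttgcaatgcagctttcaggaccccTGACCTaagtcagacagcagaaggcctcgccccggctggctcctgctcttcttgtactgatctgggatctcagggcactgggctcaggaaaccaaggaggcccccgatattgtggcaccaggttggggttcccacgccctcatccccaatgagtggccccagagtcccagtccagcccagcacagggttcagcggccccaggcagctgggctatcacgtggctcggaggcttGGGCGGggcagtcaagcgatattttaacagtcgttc

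Cpt1a held 1 core hexamer and 3 GC boxes, Pnpla2 held 2 GC boxes and Plin2 held 1 of each. Windows were on hand for 31 of the 39 members, 36 windows in all, and Dgat2 was not among them. The core hexamer occurred in 8 of these windows, or 22.2%, against 14.7% of 21263 windows of protein-coding genes, and in Acacb, Acadm, Acadvl, Cd36, Cpt1a, Plin2 and Plin5. The GC box occurred in 26 windows, or 72.2%, against 46.2%. The exact consensus of the PPAR element, a direct repeat of AGGTCA with 1 base between, had no match in member windows, against 0.0470% of windows of protein-coding genes. TCAAGGTCA, the extended site of estrogen-related receptors that contains AGGTCA, had none against 0.334%. Matches this rare would seldom occur in 36 windows, so their absence says little. Only exact letters within these windows were searched. A match is a stretch of letters and not a measured binding site.

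Among the regulators, Ppargc1a, the gene of the coactivator PGC-1 alpha, had the clearest difference. Ppargc1a was at 9.37, 9.34, 9.40 and 9.75 in DM_AngIV, at 9.57, 9.41, 9.39 and 9.18 in DM, and at 8.83, 9.12, 8.70 and 9.20 in NC. All 4 DM_AngIV arrays lay above the NC range, whereas DM replicate 4 lay just under the highest NC array. Its log2 fold change was 0.50 ± 0.14 (SE) in DM_AngIV against NC (limma adjusted p = 0.0922) and 0.42 ± 0.14 in DM against NC (0.351), so neither passed. Ppara, which encodes PPAR alpha itself, was at 7.01, 6.72, 6.53 and 6.79 in DM_AngIV, at 6.55, 6.53, 6.71 and 6.75 in DM, and at 6.71, 6.58, 6.88 and 7.09 in NC. The 3 groups overlapped. Its log2 fold change was −0.18 ± 0.13 in DM against NC, with a 95% interval between −0.45 and 0.10 (limma adjusted p = 0.743), and 0.13 ± 0.13 in DM_AngIV against DM (0.845). Ppargc1b, the related coactivator PGC-1 beta, had values of 0.11 and 0.04 in DM_AngIV and in DM against NC.

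Slc27a1, the fatty acid transport protein FATP1, had the smallest p of the 6 uptake genes in both comparisons with NC. Slc27a1 was at 8.96, 9.66, 9.30 and 9.25 in DM_AngIV, at 9.55, 9.05, 8.85 and 8.54 in DM, and at 8.26, 8.55, 8.76 and 8.37 in NC. Every DM_AngIV array was above every NC array, but DM replicate 4 fell inside the NC range. Its log2 fold change was 0.81 ± 0.19 (SE) in DM_AngIV against NC (limma adjusted p = 0.0621) and 0.51 ± 0.19 in DM against NC (0.452). Cd36, the main fatty acid translocase of the myocyte membrane, averaged 10.58 ± 0.17 in DM_AngIV, 10.67 ± 0.06 in DM and 10.46 ± 0.01 in NC (SD, n = 4 each). All DM arrays of Cd36 lay above the NC range, where the difference was 0.21 on the log2 scale (limma adjusted p = 0.569). Fabp3, the heart fatty acid binding protein, differed by less, at 12.12 ± 0.05, 12.24 ± 0.02 and 12.15 ± 0.02 in DM_AngIV, DM and NC, with DM above both other groups on every array. Its log2 fold change was 0.09 in DM against NC (limma adjusted p = 0.821) and −0.11 in DM_AngIV against DM (0.784). 

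The other uptake genes act on lipoproteins. Lpl, lipoprotein lipase, was at 11.45, 11.21, 11.19 and 11.41 in DM_AngIV, at 11.14, 10.98, 11.10 and 11.14 in DM, and at 11.04, 11.22, 11.01 and 11.20 in NC. The DM_AngIV arrays were all above the DM arrays, while DM and NC overlapped. The log2 fold change was 0.23 ± 0.10 (SE) in DM_AngIV against DM, with a 95% interval between 0.01 and 0.44 (limma adjusted p = 0.660), and −0.03 ± 0.10 in DM against NC (0.971). Vldlr, the receptor for very low density lipoprotein, averaged 9.06 ± 0.05 in DM_AngIV, 8.93 ± 0.14 in DM and 8.80 ± 0.08 in NC (SD, n = 4 each), and its DM_AngIV arrays were all above NC (log2 fold change 0.26, limma adjusted p = 0.236). Angptl4, a PPAR target that inhibits lipoprotein lipase, averaged 6.50 ± 0.56, 6.70 ± 0.41 and 6.16 ± 0.34 in DM_AngIV, DM and NC, with a log2 fold change of 0.54 in DM against NC whose interval ran between −0.01 and 1.08.

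The lipid droplet genes had the largest median of any step in the comparisons against NC, 0.53 in DM_AngIV and 0.54 in DM, with 5 of 6 positive in each. Pnpla2, the triglyceride lipase ATGL that takes the first fatty acid off stored triglyceride, was at 10.20, 10.61, 10.51 and 10.63 in DM_AngIV, at 10.61, 10.43, 10.18 and 10.08 in DM, and at 9.64, 9.85, 9.74 and 9.74 in NC. All 8 diabetic arrays lay above all 4 NC arrays. Pnpla2 was 1.68-fold higher in DM_AngIV than in NC (log2 fold change 0.75 ± 0.13 SE, limma adjusted p = 0.0137) and 1.59-fold higher in both diabetic groups averaged (0.67 ± 0.11, 0.0182). For DM against NC its log2 fold change was 0.58 ± 0.13 (limma adjusted p = 0.152). Lipe, the hormone-sensitive lipase of the next step, averaged 6.57 ± 0.38 in DM_AngIV, 6.76 ± 0.50 in DM and 5.96 ± 0.13 in NC (SD, n = 4 each). Lipe in DM lay above the NC range on every array (log2 fold change 0.80 ± 0.22 SE, limma adjusted p = 0.262).

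The perilipins coat the droplet. Plin2, the perilipin found on droplets of most cells, averaged 7.06 ± 0.21 in DM_AngIV, 7.20 ± 0.42 in DM and 6.57 ± 0.15 in NC (SD, n = 4 each). Plin5, the perilipin of oxidative tissues that tethers droplets to mitochondria, averaged 6.78 ± 0.43, 7.10 ± 0.30 and 6.59 ± 0.11 in the same order. In DM against NC the log2 fold changes were 0.63 for Plin2 (limma adjusted p = 0.283) and 0.50 for Plin5 (0.441). DM_AngIV replicate 1, at 6.22, was the lowest of all 12 arrays for Plin5.

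Dgat2 and Fitm2, which serve the making and packing of triglyceride, had values of opposite sign in DM_AngIV against NC. Dgat2, which adds the last fatty acid to triglyceride, was at 9.54, 9.47, 9.32 and 9.52 in DM_AngIV, at 9.21, 9.12, 8.97 and 9.02 in DM, and at 8.67, 8.90, 8.93 and 9.06 in NC. The DM_AngIV arrays lay above every array of the other groups. Dgat2 was 1.49-fold higher in DM_AngIV than in NC (log2 fold change 0.57 ± 0.11 SE, limma adjusted p = 0.0207). Against DM its log2 fold change of 0.38 ± 0.11 did not pass (limma adjusted p = 0.511), although it ranked 99 of 19505 genes by p. Fitm2, an endoplasmic reticulum protein needed for droplet formation, averaged 7.48 ± 0.19 in DM_AngIV, 7.83 ± 0.24 in DM and 7.88 ± 0.13 in NC (SD, n = 4 each). Its DM_AngIV arrays were all below NC (log2 fold change −0.40, limma adjusted p = 0.173), the single member whose groups did not overlap in that direction.

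**Figure D3:**
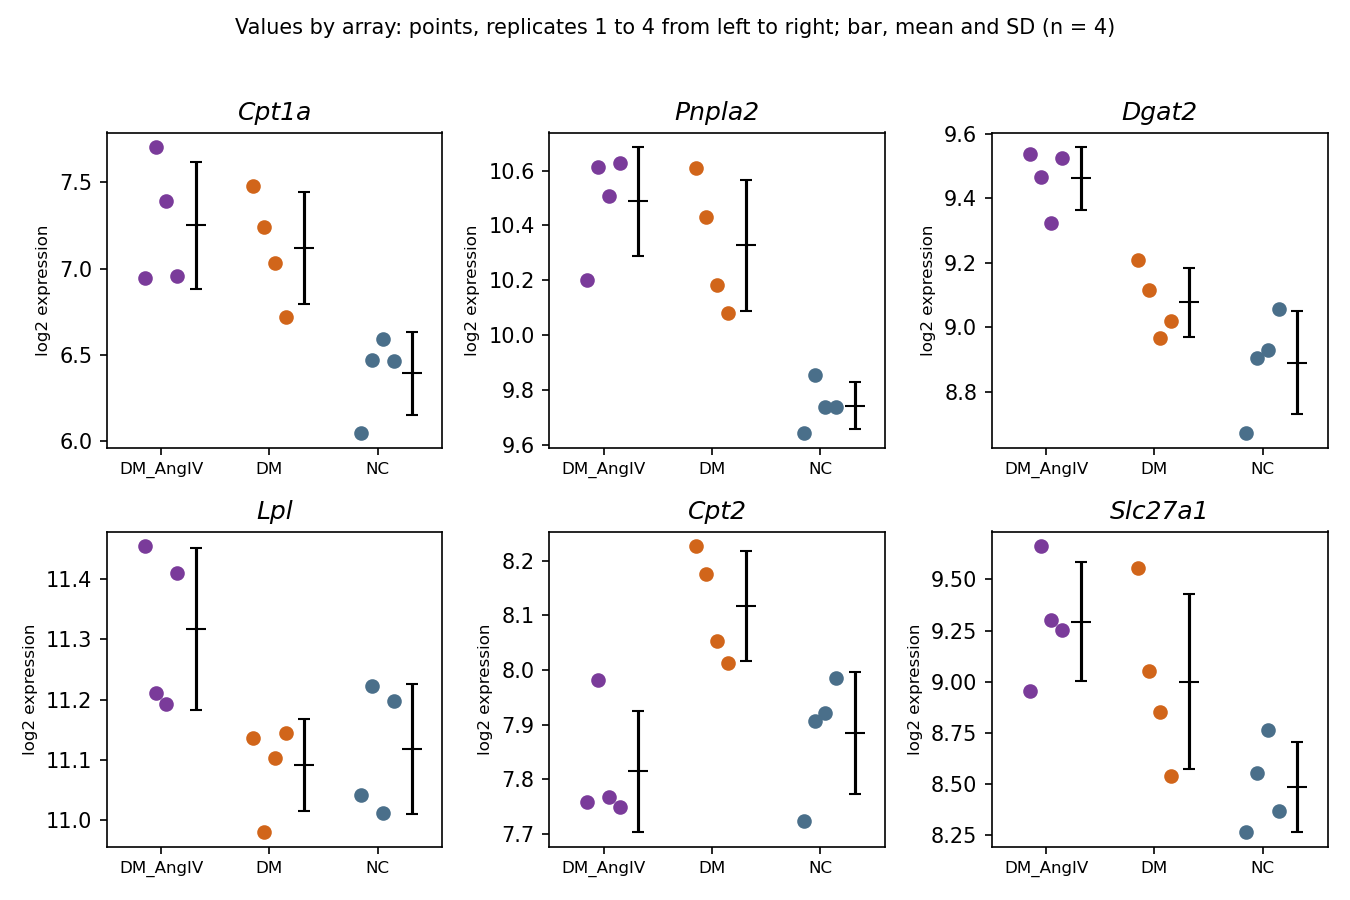
Log2 expression (vertical axes, with separate ranges that do not start at 0) of Cpt1a, Pnpla2, Dgat2, Lpl, Cpt2 and Slc27a1 in DM_AngIV, DM and NC, with 1 point for each array and the mean and SD beside them (n = 4 each). Pnpla2 and Cpt1a are above NC on all 8 diabetic arrays, Dgat2 and Lpl are higher in DM_AngIV than in DM on every array, and Cpt2 is lower.

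In the carnitine shuttle all 7 genes were positive in DM against NC, with a median of 0.33 and log2 fold changes between 0.23 and 0.73, and all 7 had an unadjusted p below 0.05, against 8.95% of all genes. Against NC, 6 of 7 were positive in DM_AngIV, with a median of 0.27, and 3 of 7 had an unadjusted p below 0.05, against 14.6% of all genes. Cpt1a, a carnitine palmitoyltransferase of the outer mitochondrial membrane and the form that predominates in liver, was at 6.95, 7.71, 7.39 and 6.95 in DM_AngIV, at 7.48, 7.24, 7.03 and 6.72 in DM, and at 6.05, 6.47, 6.59 and 6.46 in NC. Both diabetic groups lay above NC on every array. Cpt1a was 1.81-fold higher in DM_AngIV than in NC (log2 fold change 0.86 ± 0.19 SE, limma adjusted p = 0.0446) and 1.73-fold higher in both diabetic groups averaged (0.79 ± 0.17, 0.0423). For DM against NC its log2 fold change was 0.73 ± 0.19 (limma adjusted p = 0.244). Cpt1b, the muscle form of the same enzyme, averaged 9.91 ± 0.15 in DM_AngIV, 9.93 ± 0.14 in DM and 9.60 ± 0.11 in NC (SD, n = 4 each), and DM differed from NC by 0.33 ± 0.11 (SE) on the log2 scale (limma adjusted p = 0.374).

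Further genes of the shuttle were the carrier of acylcarnitines across the inner membrane, Slc25a20, and the carnitine acetyltransferase Crat, each with a log2 fold change of 0.35 in DM against NC (limma adjusted p = 0.484 and 0.438). Malonyl-CoA, which blocks the outer transferase, is made by the product of Acacb and removed by that of Mlycd, and both genes were on the positive side, at 0.29 and 0.30 in DM against NC. In DM_AngIV against NC the values were 0.41 for Acacb and 0.20 for Mlycd. Acacb in DM_AngIV was above the NC range on every array, at 7.74 ± 0.08 against 7.33 ± 0.04 (SD, n = 4 each; limma adjusted p = 0.166).

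Cpt2, the transferase of the inner membrane, followed another pattern from Cpt1a. Cpt2 was at 7.76, 7.98, 7.77 and 7.75 in DM_AngIV, at 8.23, 8.18, 8.05 and 8.01 in DM, and at 7.72, 7.91, 7.92 and 7.99 in NC. DM was above both other groups on every array, and DM_AngIV overlapped with NC. Its log2 fold change was −0.30 ± 0.10 (SE) in DM_AngIV against DM, with a 95% interval between −0.52 and −0.09 (limma adjusted p = 0.605), and 0.23 ± 0.10 in DM against NC (0.524).

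The enzymes of mitochondrial beta oxidation were positive in 8 of 10 in DM_AngIV against NC and in 9 of 10 in DM against NC, but with a median of 0.12 in each. Within the step the genes differed. Decr1, which reduces the double bonds of unsaturated fatty acids, was at 9.01, 9.82, 9.75 and 9.68 in DM_AngIV, at 9.88, 9.86, 9.69 and 9.62 in DM, and at 9.08, 9.33, 9.47 and 9.27 in NC. DM lay above NC throughout, while DM_AngIV replicate 1 was below all NC arrays. The log2 fold change of Decr1 was 0.48 ± 0.16 (SE) in DM against NC (limma adjusted p = 0.373) and −0.19 ± 0.16 in DM_AngIV against DM (0.805). Omitting DM_AngIV replicate 1 gave −0.01 in DM_AngIV against DM. The dehydrogenases of long chains, Acadl and Acadvl, had 0.38 and 0.36 in DM_AngIV against NC (limma adjusted p = 0.135 and 0.251) and 0.32 and 0.35 in DM against NC (0.423 and 0.481). Those of medium and short chains, Acadm and Acads, had 0.13 and −0.11 in DM_AngIV against NC and 0.04 and 0.00 in DM against NC. The subunits of the trifunctional protein, Hadha and Hadhb, which together catalyse the later steps on long chains, had 0.05 and 0.08 in DM_AngIV against NC and 0.13 and 0.08 in DM against NC. Hadh, Acaa2 and Eci1, which handle the hydroxyacyl, thiolase and isomerase steps, had values between −0.01 and 0.23 in the comparisons with NC.

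Electrons from beta oxidation pass through the electron transfer flavoprotein and its dehydrogenase. Etfdh was at 10.001, 10.30, 10.26 and 10.15 in DM_AngIV, at 10.39, 10.25, 10.26 and 10.16 in DM, and at 9.91, 10.07, 10.10 and 10.14 in NC. DM was above NC on every array by a small margin, 0.21 ± 0.10 (SE) in the mean log2 difference (limma adjusted p = 0.586). Etfa, the alpha subunit of the flavoprotein, was at 10.85, 10.98, 10.89 and 10.94 in DM_AngIV, at 10.92, 10.71, 10.81 and 10.75 in DM, and at 10.52, 10.74, 10.75 and 10.79 in NC. Here DM_AngIV lay above NC on every array (log2 fold change 0.21 ± 0.10, limma adjusted p = 0.326) and overlapped with DM.

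Genes of the peroxisome, or of enzymes found in both organelles, had a median of −0.173 in DM_AngIV against DM, and 5 of 5 were negative there. The lipid droplet genes were close to this, with a median of −0.167 and 4 of 6 negative. In DM against NC 5 of 5 were positive, with a median of 0.18. Because the DM arrays enter both comparisons, one sign tends to bring the other. Ech1, an isomerase of both organelles, was at 10.74, 11.24, 11.08 and 11.06 in DM_AngIV, at 11.23, 11.19, 11.24 and 11.14 in DM, and at 10.95, 11.04, 11.06 and 10.90 in NC. DM was above NC on every array (log2 fold change 0.21 ± 0.11 SE, limma adjusted p = 0.609), and DM_AngIV spanned the ranges of both. Pex11a, a PPAR alpha target that promotes division of peroxisomes, was at 5.17, 5.79, 5.50 and 5.39 in DM_AngIV, at 5.99, 5.58, 5.95 and 5.62 in DM, and at 5.41, 5.62, 5.80 and 5.78 in NC. The groups overlapped, with a log2 fold change of −0.32 ± 0.15 in DM_AngIV against DM (limma adjusted p = 0.656). Ehhadh, the peroxisomal bifunctional enzyme, had −0.39 in DM_AngIV against DM and 0.42 in DM against NC, both with intervals that included 0. Acaa1a and Eci2 had values between −0.08 and 0.18 in the same comparisons.

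In DM_AngIV against DM, the comparison of treated with untreated diabetic mice, 0 of 39 members passed with limma, as did 0% of all genes. The smallest adjusted p among the members was 0.511, that of Dgat2. No vehicle infusion is described for DM mice, so angiotensin IV and the infusion cannot be told apart. Myl7 was above background on 0 of 4 DM_AngIV arrays and 3 of 4 DM arrays, so atrial signal largely went with group here. At an unadjusted p below 0.05 there were 5 members, 2 higher and 3 lower, against 7.48% of all genes (3.98% higher and 3.5% lower). The 2 higher were Dgat2 and Lpl, and the 3 lower were Cpt2, Fitm2 and Pex11a. The groups did not overlap in 4 members, Dgat2 and Lpl above DM and Cpt2 and Fabp3 below it, against 5.01% of all genes (2.81% higher and 2.2% lower). For Pnpla2 and Cpt1a the log2 fold changes in DM_AngIV against DM were 0.16 and 0.13, with 95% intervals between −0.12 and 0.44 and between −0.27 and 0.54.

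The calls of single genes depended on few arrays. In DM_AngIV against NC, Pnpla2 passed in 11 of the 12 fits that left out 1 array and was lost without DM_AngIV replicate 4 (limma adjusted p = 0.0525). Dgat2 passed in 8 and was lost without NC replicates 1 or 2 or DM_AngIV replicates 2 or 4 (highest limma adjusted p 0.0721). Cpt1a passed in 3, with the adjusted p lying between 0.0319 and 0.129 over those fits. With both diabetic groups averaged against NC, Pnpla2 was lost without NC replicates 1, 3 or 4 (highest limma adjusted p 0.0681), and Cpt1a passed in 3 of 12. Without the 5 arrays with Myl7 above background, which leaves NC replicates 2 and 4, the log2 fold changes in DM_AngIV against NC were 0.69 for Pnpla2, 0.48 for Dgat2 and 0.78 for Cpt1a, and none passed (limma adjusted p = 0.124, 0.180 and 0.184). With the same arrays left out, the median over members was 0.15 in DM_AngIV against NC, 0.18 in DM against NC, where 1 DM array remained, and 0.02 in DM_AngIV against DM.

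The members differed between mice of 1 group in a common way. The number of members above all NC arrays was 14, 29, 22 and 25 in DM_AngIV replicates 1 to 4 and 33, 26, 23 and 16 in DM replicates 1 to 4, whereas over all genes this share lay between 18.9% and 22.0% on each of those arrays. Within DM_AngIV, replicate 2 was the highest of its group in 30 of 39 members and replicate 1 the lowest in 24, against 23.6% and 24.7% of all genes. Within DM, replicate 1 was the highest in 28 members and replicate 4 the lowest in 23, against 25.9% and 26.2% of all genes. Within NC, replicate 3 was the highest in 23 and replicate 1 the lowest in 28, against 24.3% and 26.0% of all genes. The set mean over members was 8.66, 9.002, 8.79 and 8.83 in DM_AngIV, 9.05, 8.87, 8.82 and 8.70 in DM, and 8.46, 8.62, 8.70 and 8.63 in NC. DM replicate 4 and DM_AngIV replicate 1 thus lay at or under the highest NC array in this mean.

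**Figure D4:**
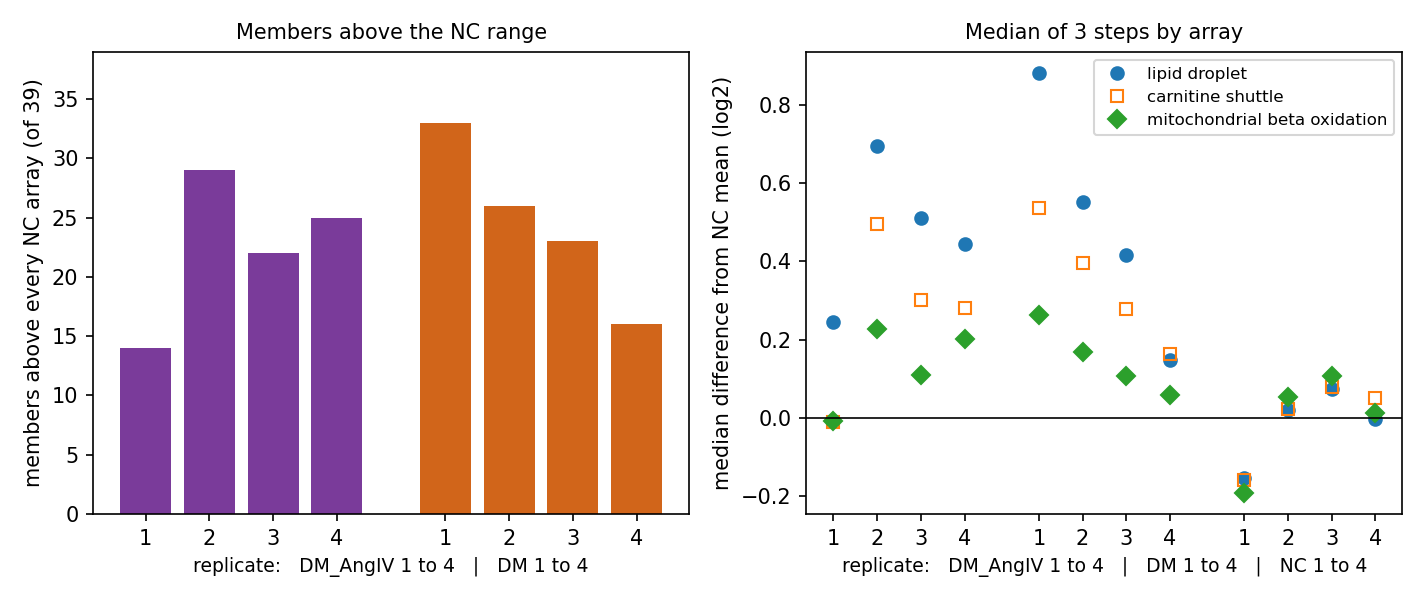
Left, number of the 39 members above every NC array on each DM_AngIV and DM array, which runs between 14 and 29 in DM_AngIV and between 16 and 33 in DM. Right, median difference from the NC mean (log2) of the lipid droplet, carnitine shuttle and mitochondrial beta oxidation genes on each of the 12 arrays, where the lipid droplet median reaches 0.88 in DM replicate 1 and 0.69 in DM_AngIV replicate 2.

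The lipid droplet genes had a median difference from the NC mean of 0.24, 0.69, 0.51 and 0.44 in DM_AngIV and 0.88, 0.55, 0.42 and 0.15 in DM. The carnitine shuttle median was −0.01, 0.49, 0.30 and 0.28 in DM_AngIV and 0.54, 0.40, 0.28 and 0.16 in DM. Macrophage and monocyte markers moved with this in part. Like both medians, they were highest in replicate 1 and lowest in replicate 4 of DM. In DM_AngIV they were lowest in replicate 4, where both medians were lowest in replicate 1. Their mean over 13 measured genes was 5.91, 5.93, 5.85 and 5.40 in DM_AngIV and 6.29, 5.79, 5.79 and 5.40 in DM. It lay between 5.31 and 5.46 in NC. All 13 of them were positive in DM against NC, against 49.8% of all genes, with a median of 0.39 and 0 passing. At an unadjusted p below 0.05 there were 6, all higher, against 8.95% of all genes. In DM_AngIV against NC 12 of 13 were positive, against 48.5% of all genes, with a median of 0.28 and 0 passing. There 4 had an unadjusted p below 0.05, all higher, against 14.6% of all genes. Ccr2 and Aif1 were not above background in any group, and neither were Itgam and Fcgr1 in NC. The part of macrophages and monocytes in the result was not tested. Of 9 measured endothelial markers, 6 were positive in each of DM_AngIV and DM against NC. At an unadjusted p below 0.05 there were 4 in DM_AngIV, 3 higher and 1 lower, against 14.6% of all genes. In DM there were 2, 1 higher and 1 lower, against 8.95%. Fibroblast markers were positive in 1 of 7 and 2 of 7 in DM_AngIV and DM, smooth muscle and pericyte markers in 5 of 8 and 3 of 8. The fibroblast marker Col3a1 passed as lower in DM_AngIV against NC (log2 fold change −1.17, limma adjusted p = 0.0128), where 1.02% of all genes passed. Col3a1 also passed as lower with both diabetic groups averaged (−0.81, limma adjusted p = 0.0493), where 0.631% of all genes passed. The part of these cells was not tested. Of the 6 measured white adipocyte markers, Adipoq, Lep, Plin1, Retn and Cidec were not above background in any group, and the mean of the 6 lay between 3.61 and 4.08 in DM_AngIV, 3.66 and 3.96 in DM and 3.58 and 4.29 in NC. The sixth, Pparg, which encodes the nuclear receptor PPAR gamma, was above background on every array. Pparg averaged 6.26 ± 0.08 in DM_AngIV, 6.05 ± 0.36 in DM and 5.57 ± 0.38 in NC (SD, n = 4 each). Every DM_AngIV array of Pparg lay above the NC range, with a log2 fold change of 0.69 (limma adjusted p = 0.0917), and DM overlapped with NC at 0.48 (0.461). Of 5 measured brown adipocyte markers, 1 was positive and 4 were negative in each of DM_AngIV and DM against NC. The positive one was Cidea, also listed as a PPAR alpha target, which was above background on every array. Its DM arrays all lay above NC (log2 fold change 0.56, limma adjusted p = 0.234), and DM_AngIV overlapped with NC at 0.24 (0.480). Ucp1 and Dio2 were not above background in any group. The part of adipocytes in the members' values was not tested.

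Genes of the same route outside the set were less uniform. Of 38 other pathway genes measured, 22 were positive in DM_AngIV against NC and 20 in DM against NC, with medians of 0.05 and 0.01. Over all genes 48.5% and 49.8% were positive. At an unadjusted p below 0.05 there were 5 in DM_AngIV against NC, or 13.2%, all higher, against 14.6% of all genes. In DM against NC there were 9, or 23.7%, against 8.95%, with 6 higher and 3 lower. The 3 lower were Acsl6, Echs1 and G0s2 (log2 fold changes −0.40, −0.31 and −0.33). Plin4, a further perilipin, passed in DM_AngIV against NC, at 7.43 ± 0.32 against 6.63 ± 0.16 (SD, n = 4 each; log2 fold change 0.80, limma adjusted p = 0.0288). Fabp4, a fatty acid binding protein of capillary endothelium and adipocytes, averaged 11.21 ± 0.10 in DM_AngIV, 11.24 ± 0.09 in DM and 10.81 ± 0.07 in NC, and passed with both diabetic groups averaged (log2 fold change 0.42, limma adjusted p = 0.0349). All 8 diabetic arrays of Fabp4 lay above NC. In DM_AngIV against DM the smallest p-values were those of Dbi, the acyl-CoA binding protein (log2 fold change −0.43, limma adjusted p = 0.521), Acsl6, an acyl-CoA synthetase (0.34, 0.643), and Plin4 (0.37, 0.649).

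Some targets of PPAR alpha outside the set had larger log2 fold changes in DM against NC than any member. In DM_AngIV against NC only Acot1 did, at 0.98. Of 10 measured, 8 were positive in DM_AngIV against NC and 6 in DM against NC, against 48.5% and 49.8% of all genes. In DM_AngIV against DM 3 were positive and 7 negative, with a median of −0.37, where 49.8% of all genes were positive. Fgf21, Cyp4a10 and Cyp4a14 were above background on 0 of 12 arrays and Fabp1 on 1, and these 4 are included in the counts. Acot1, a cytosolic thioesterase that splits fatty acyl-CoA, was at 5.95, 7.54, 6.98 and 7.09 in DM_AngIV, at 8.12, 7.85, 7.35 and 6.77 in DM, and at 5.90, 5.82, 6.23 and 5.68 in NC. DM replicate 1 was the highest DM array, and DM_AngIV replicate 1 lay within the NC range. Acot1 rose with both diabetic groups averaged against NC (log2 fold change 1.30 ± 0.26 SE, limma adjusted p = 0.0385), and its value in DM against NC was 1.61 ± 0.30 (0.0985). Acot2, its mitochondrial relative, had 1.07 ± 0.24 in DM against NC (limma adjusted p = 0.152). Pdk4, the kinase that shuts off pyruvate dehydrogenase, was at 7.34, 9.57, 8.98 and 8.67 in DM_AngIV, at 10.31, 9.73, 9.18 and 8.58 in DM, and at 8.03, 8.44, 8.36 and 7.32 in NC, again with DM replicate 1 and DM_AngIV replicate 2 highest in their groups. Its log2 fold change was 1.41 ± 0.42 in DM against NC (limma adjusted p = 0.308). Ucp3, also on this list, had 1.48 ± 0.43 in DM against NC (limma adjusted p = 0.308). In DM_AngIV against NC the log2 fold changes were 0.65 for Acot2, 0.60 for Pdk4 and 0.58 for Ucp3. In DM_AngIV against DM those of Acot1, Acot2, Pdk4 and Ucp3 were −0.63, −0.43, −0.81 and −0.91 (limma adjusted p between 0.672 and 0.711).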

How the data were processed

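The values are log2 expression per probe set that the authors deposited as 1 table, made with RMA (robust multi-array average) per the submitters' processing notes. The input was 6 µg of total RNA, per the extract protocol. Its version is not given in the sources used here. RMA sets all arrays to a common distribution, so a change shared by most genes would not be seen. Of 29129 probe sets, 19572 had 1 gene symbol, all matched to GRCm38.p6 by gene ID. The probe set with the highest mean was used per gene, which left 19505 genes, and each measured member had 1 probe set. limma 3.58.1 in R 4.3.3 (lmFit, eBayes) was fitted on all 12 arrays with a mean per group, and p-values were Benjamini-Hochberg adjusted over all genes. Intervals are 95% intervals from that fit. On simulated data for DM against NC with 19505 genes, it recovered 37.8%, 90.0% and 99.2% of genes changed by 0.5, 1 and 2 (log2), and 4.67% of calls were false. The simulation drew independent normal noise with 1 SD per gene, so genes did not move together in it. The shares are averages over all genes and may not hold for a single gene. In the data Acot1, at 1.61 in DM against NC, did not pass (limma adjusted p = 0.0985). Precision is limited by the number of arrays. Members, gene lists, alternatives and the rule for named genes (per step, the smallest p in DM against NC and in DM_AngIV against DM, plus every called member) were chosen with earlier results of these data known. Cpt1b and the other members with values beside a step were named to account for the step. Counts over lists used Python 3.11.15, and the plots matplotlib 3.10.9.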

Additional observations from a re-analysis of the deposited data

Results flagged for a closer look

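Among 120 groups of 4 arrays tested (39 members and the set mean, in 3 groups each), 4 had an array far from the other 3 of its group by Dixon's test, where chance gives about 1 in 20 groups. Ppargc1a was at 9.75 in DM_AngIV replicate 4, against 9.34 to 9.40 in the others of its group. Cpt1b was at 9.70 in DM_AngIV replicate 1, against 9.97 to 10.01. Cpt2 was at 7.98 in DM_AngIV replicate 2, against 7.75 to 7.77, and is thus the DM_AngIV array nearest to DM. Acadm was at 8.99 in NC replicate 1, against 9.35 to 9.42.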

How the results depend on the processing

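The number of members called depended on the settings more than the median did. In DM against NC it was 0 in the main setting and 1 (Pnpla2) with the trended and robust variance prior. In DM_AngIV against NC it was 3, and became 5 at an adjusted p below 0.10, 5 with the filter on dim genes, 5 with the trended prior, 1 with the replicate block and 0 without the arrays with Myl7 signal. With both diabetic groups averaged it was 2, and became 5, 7, 6, 0 and 0 under the same settings in that order, and 1 with array weights and 1 with the white adipocyte covariate, a mean of 6 genes of which 5 were not above background, which therefore checks little about adipocytes. Leaving out 1 array gave 0 to 4 members in each of the last 2 comparisons, and 0 in DM against NC and in DM_AngIV against DM. Over all genes the counts were 3 (0 to 30 over the alternatives) in DM against NC, 0 (0 to 5) in DM_AngIV against DM, 198 (50 to 567) in DM_AngIV against NC and 123 (1 to 366) with both averaged. Fewer arrays or fewer genes tested enter several of these settings, and otherwise the cause was not tested. The median log2 fold change of the members stayed between 0.17 and 0.24 in DM against NC, 0.10 and 0.24 in DM_AngIV against NC, and 0.15 and 0.23 with both averaged, over all alternatives run. In DM_AngIV against DM it ran between −0.13 and 0.02. Replicate numbers are shared between groups, but arrays of the same number did not deviate together (r between −0.10 and 0.17), so the replicate block has no basis in the design. The fit with only the compared groups equals the main one where both diabetic groups are averaged. No member picked for a comparison, by the smallest p of its step or by being called, changed sign under any alternative run for it. Genes picked for a small p are less prone to change sign, and the signs of the other members were not checked this way.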

Other observations

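Fabp1, the fatty acid binding protein of liver and intestine, was listed among the PPAR alpha targets and stood apart on 1 array. It was at 3.32, 1.77, 2.48 and 3.85 in DM_AngIV, at 2.46, 2.97, 3.72 and 3.99 in DM, and at 2.31, 1.80, 7.13 and 4.36 in NC, so that NC replicate 3 alone was above the background of 4.96. Cyp4a10, a fatty acid hydroxylase, was highest at 4.87 in DM_AngIV replicate 4 and 4.66 in NC replicate 3, against 2.66 to 3.59 on the other 10 arrays.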
